A study of Mus musculus with 30 samples.

Results

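The nuclear-encoded subunits of the oxidative phosphorylation complexes were followed across 6 groups of mouse whole brain. Members were chosen by name alone, as protein-coding genes whose mouse symbol begins with Nduf and a subunit letter and number, Sdha to Sdhd, Uqcr, Cox4 to Cox8, or Atp5. Of 88 matching symbols, 4 Sdhaf assembly factors and 2 genes that are not protein-coding (Ndufb1-ps and Ndufb4c) were left out. This gave 82 of the 19737 genes, with 37 in complex I, 4 in complex II, 8 in complex III, 16 in complex IV and 17 in complex V. The symbol sorts 3 genes loosely: Ndufa4 is now regarded as a complex IV subunit, Cox7a2l acts in supercomplex assembly, and Atp5s is an ATP synthase-associated protein.

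Whole brains came from male C57BL/6N mice that were wild-type (WT) or heterozygous (HT, Arid1b+/-) for a CRISPR/Cas9 mutation of exon 5 of Arid1b, a chromatin remodeler gene, and bred from HT fathers and WT mothers. At postnatal day 10 (P10), 5 HT and 5 WT brains were taken from untreated mice. At P120, 5 brains were taken from each of 4 groups (WT-Veh, WT-Flx, HT-Veh, HT-Flx), whose dams had drunk vehicle (0.2% saccharin) or 0.1 mg/ml fluoxetine in the same vehicle from P3 to P21, so that pups were exposed in early life and examined as adults. Fluoxetine is a selective serotonin reuptake inhibitor. Values are normalized counts (reads per gene divided by a size factor of the library), so the read depth of each library is unknown. In bulk tissue, fewer cells of a type and less RNA per cell cannot be told apart.

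Several libraries stood apart. Arid1b was at 2162 to 2334 in P10-HT against 3164 to 3309 in P10-WT, and at 2164 to 2616 in HT-Flx against 2961 to 3392 in WT-Flx. Both replicate 2 libraries of the vehicle groups went against their labels, with 3361 in the library labelled HT-Veh 2 and 2320 in the library labelled WT-Veh 2. The comparison of HT-Veh with WT-Veh left both out, as the study's own listing of that comparison did. Both stayed, under their labels, in the main fits of the other comparisons that use these groups. Among P120 libraries the balance between GC-rich and GC-poor genes also varied. The log2 difference between genes of at least 58.29% GC and genes of at most 42.01% GC, relative to the WT mean, was over 0.5 in 9 of the 20 P120 libraries, namely 5 HT-Flx, 3 HT-Veh and 1 WT-Veh. In those 9 libraries the median member lay 0.06 to 0.70 above the WT mean on the log2 scale, and in the other 11 it lay between -0.16 and 0.15. HT-Veh 3 held the highest of the 20 P120 values for 44 of the 82 members, and the median member of P10-HT 1 lay at -0.21 relative to the WT mean. Markers of neurons, astrocytes and oligodendrocytes were present in every group (summed neuronal markers 63143 to 118698), as the tissue label states, while the skeletal muscle markers summed to 139 to 359 (4 of 5) and those of heart to 64.5 to 268 (2 of 3), Ckm and Myl7 being not analysed here.

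Oxidative phosphorylation passes electrons from NADH through complex I (NADH dehydrogenase) or from succinate through complex II (succinate dehydrogenase) to complex III (the cytochrome bc1 complex) and complex IV (cytochrome c oxidase), which reduces oxygen. Complexes I, III and IV pump protons, and complex V (ATP synthase) uses the gradient to make ATP. A small core of subunits is encoded in mitochondrial DNA and the rest by nuclear genes, which rely on factors such as NRF1, the ETS factor GABP and YY1 for transcription. Several complex IV subunits have alternative isoforms best known from heart, skeletal muscle, lung or testis.

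Promoter windows of 250 bases before to 50 after a RefSeq start (GRCm38.p6) were found for 65 of the 82 members. The letters GCATGCGC, the core of the NRF1 site, stood in 14.3% of 70 member windows and in 2.71% of 32851 windows of all genes. CCGGAAG, the core bound by ETS factors, stood in 22.9% against 8.86%, and AAGATGGCG, the YY1 site, in 10% against 1.4%. Both strands were searched. The median GC content was 57.3% in member windows and 52.7% in all windows, and its part in these shares was not tested. Uqcrc1 and Ndufs7 are shown since they were among the members that differed most at P120, Cox6a1 as a common isoform, and Cox7a1 and Cox8b as isoforms best known from muscle. Capitals mark the motif letters, and overlapping NRF1 matches on both strands run together. The windows lie at chr9:108936398-108936697 (+ strand) for Uqcrc1, chr10:80249199-80249498 (+) for Ndufs7, chr5:115348909-115349208 (-) for Cox6a1, chr7:30183921-30184220 (+) for Cox7a1 and chr7:140900397-140900696 (-) for Cox8b.
Uqcrc1: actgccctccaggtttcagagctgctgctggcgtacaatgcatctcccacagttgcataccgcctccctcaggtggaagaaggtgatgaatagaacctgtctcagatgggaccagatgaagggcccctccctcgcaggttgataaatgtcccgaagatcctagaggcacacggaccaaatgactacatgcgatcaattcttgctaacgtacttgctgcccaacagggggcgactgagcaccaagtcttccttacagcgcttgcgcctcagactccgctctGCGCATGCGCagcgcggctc
Ndufs7: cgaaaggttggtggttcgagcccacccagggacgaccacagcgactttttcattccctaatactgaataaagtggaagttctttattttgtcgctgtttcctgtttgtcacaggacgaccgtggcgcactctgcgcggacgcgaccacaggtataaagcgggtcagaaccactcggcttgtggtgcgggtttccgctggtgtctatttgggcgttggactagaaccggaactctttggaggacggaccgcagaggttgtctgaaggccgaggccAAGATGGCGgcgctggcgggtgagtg
Cox6a1: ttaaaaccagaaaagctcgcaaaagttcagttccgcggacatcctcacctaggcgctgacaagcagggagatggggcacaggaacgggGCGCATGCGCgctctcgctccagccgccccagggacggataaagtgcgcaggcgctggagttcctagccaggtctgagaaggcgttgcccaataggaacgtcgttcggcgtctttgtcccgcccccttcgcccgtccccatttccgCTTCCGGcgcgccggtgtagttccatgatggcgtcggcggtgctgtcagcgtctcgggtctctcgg
Cox7a1: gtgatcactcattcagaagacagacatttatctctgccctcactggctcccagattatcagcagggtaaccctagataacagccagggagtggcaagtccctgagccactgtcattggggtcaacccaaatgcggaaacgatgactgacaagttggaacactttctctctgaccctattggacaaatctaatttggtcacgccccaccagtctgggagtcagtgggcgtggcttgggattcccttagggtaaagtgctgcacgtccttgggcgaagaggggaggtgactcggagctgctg
Cox8b: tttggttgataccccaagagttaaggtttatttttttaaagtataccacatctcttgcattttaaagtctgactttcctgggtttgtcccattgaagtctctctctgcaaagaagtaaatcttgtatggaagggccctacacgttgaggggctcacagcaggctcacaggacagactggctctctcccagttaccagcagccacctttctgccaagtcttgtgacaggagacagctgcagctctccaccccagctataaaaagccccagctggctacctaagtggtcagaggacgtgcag
The Uqcrc1 and Cox6a1 windows hold the NRF1 letters, Cox6a1 also the ETS letters, and Ndufs7 the YY1 letters just after the start. None of the 3 motifs is found in the Cox7a1 and Cox8b windows, which have 7 and 2 CpG dinucleotides against 15 in Uqcrc1, 24 in Ndufs7 and 32 in Cox6a1. Lacking a motif is not particular to these isoforms. Of the 65 members with a window, 10 hold the NRF1 letters, 16 the ETS letters and 7 the YY1 letters, so most members lack each of them.

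The 82 members made up 0.782% to 1.20% of all normalized counts in a library. By group, this share was 0.927% ± 0.0122 (mean ± SD, n = 5) in P10-WT, 0.876% ± 0.0546 in P10-HT, 0.985% ± 0.0814 in WT-Veh, 0.952% ± 0.0391 in WT-Flx, 1.04% ± 0.105 in HT-Veh and 1.09% ± 0.111 in HT-Flx. Complex V held the largest part in each group (0.376% ± 0.00344 in P10-WT and 0.349% ± 0.0354 in WT-Veh), followed by complex I (0.236% ± 0.00475 and 0.275% ± 0.0231). Complex II held the smallest (0.0550% ± 0.00143 and 0.0619% ± 0.00310). Every HT-Flx library was above every WT-Flx library in the shares of complex III (0.101% to 0.125% against 0.0891% to 0.0988%) and complex IV (0.209% to 0.274% against 0.186% to 0.200%), while these groups overlapped in complexes I, II and V.

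**Figure D1:**
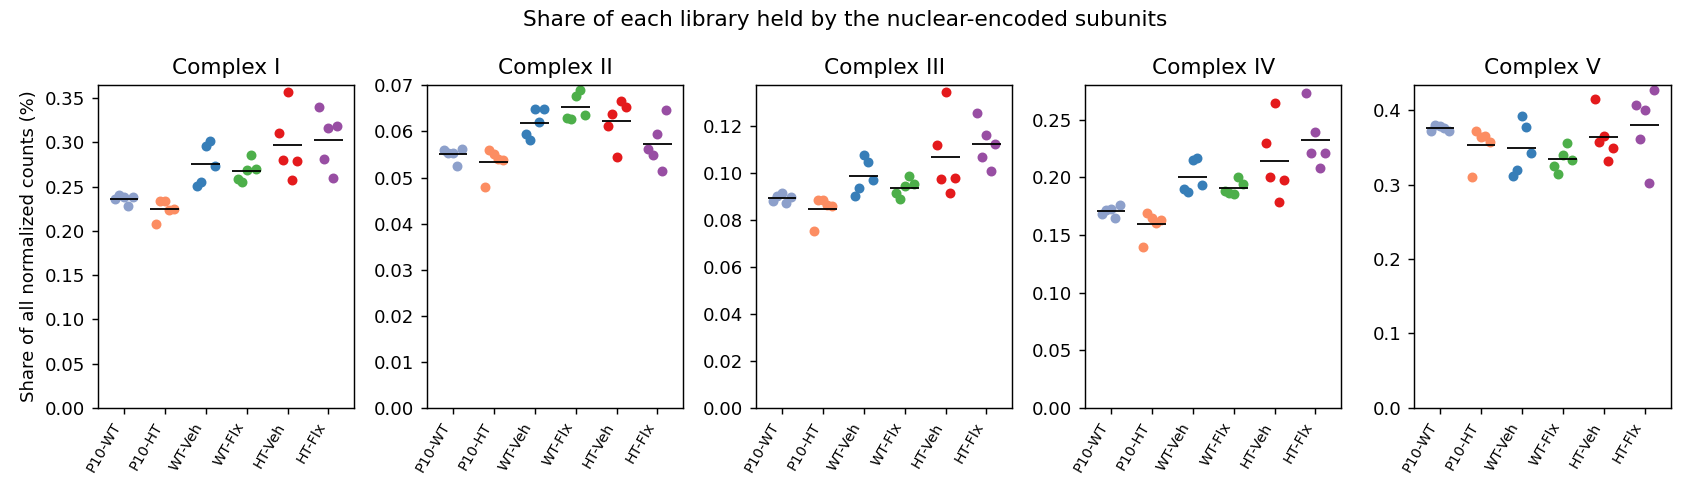
Share of all normalized counts in a library (%) held by the nuclear-encoded subunits of each complex, with 1 panel per complex, 1 point per library and a line at the group mean. Complex I averaged 0.236% in P10-WT and 0.275% in WT-Veh, while complex V averaged 0.376% and 0.349%.

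Levels between genes were compared per kb of the median annotated transcript, averaged over all 30 libraries. In complex I, Ndufa4 was highest at 11741 normalized counts per kb, followed by Ndufb8, an accessory subunit, at 8163. In complex II the flavoprotein Sdha (6040) and the iron-sulfur subunit Sdhb (3920) led, with the membrane anchor Sdhd lowest at 1957. The core protein Uqcrc1 was highest in complex III at 20611, followed by Uqcrq at 8312, with the Rieske protein Uqcrfs1 lowest at 2686. Cox4i1 (19752) and Cox6a1 (18025) led complex IV. The beta and alpha subunits of the catalytic head, Atp5b (19364) and Atp5a1 (12377), led complex V, and Atp5g2, 1 of 3 genes for the c subunit of the rotor, was lowest at 430. With the longest transcript in place of the median, several of these orders turned. Ndufb8 fell to rank 23 of 37, Sdhb passed Sdha, Uqcrh passed Uqcrc1 and Uqcrq fell to rank 6 of 8. The lowest members were then Sdhc, Uqcrc2 and Atp5s in complexes II, III and V. The members' transcripts are short, with a median length of 669.5 bp against 2146 bp for 17945 genes, and their median GC content of 51.9% is near the 50.25% of those genes.

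The alternative isoforms were all listed far below their common partners in brain. In WT-Veh, Cox4i1 stood at 20708 ± 2311 normalized counts per kb (mean ± SD, n = 5) and Cox4i2, the isoform of lung and pericytes that responds to hypoxia, at 80.7 ± 6.67. Cox6a1 was at 18694 ± 1786 and Cox6a2, the heart and muscle isoform that parvalbumin interneurons also use, at 112 ± 31.9. Cox6b2, best known from testis, was at 221 ± 25.2 beside 9020 ± 1051 for Cox6b1. Cox7a1, of heart and muscle, was at 82.1 ± 26.8 beside 5798 ± 1594 for Cox7a2. Cox8b was the lowest member at 46.1 ± 20.9 beside 15836 ± 1019 for Cox8a. Ndufa4l2, a hypoxia-inducible paralogue found in pericytes, was at 57.7 ± 6.30 beside 10675 ± 1215 for Ndufa4. Among the c subunit genes, Atp5g3 was at 8835 ± 1118, Atp5g1 at 1500 ± 215 and Atp5g2 at 363 ± 78.7, and their protein products are the same once the targeting peptide is cut off. The SD ranges of Cox4i2, Cox7a1 and Cox6a2 overlap, as do those of Cox7a1, Ndufa4l2 and Cox8b.

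**Figure D2:**
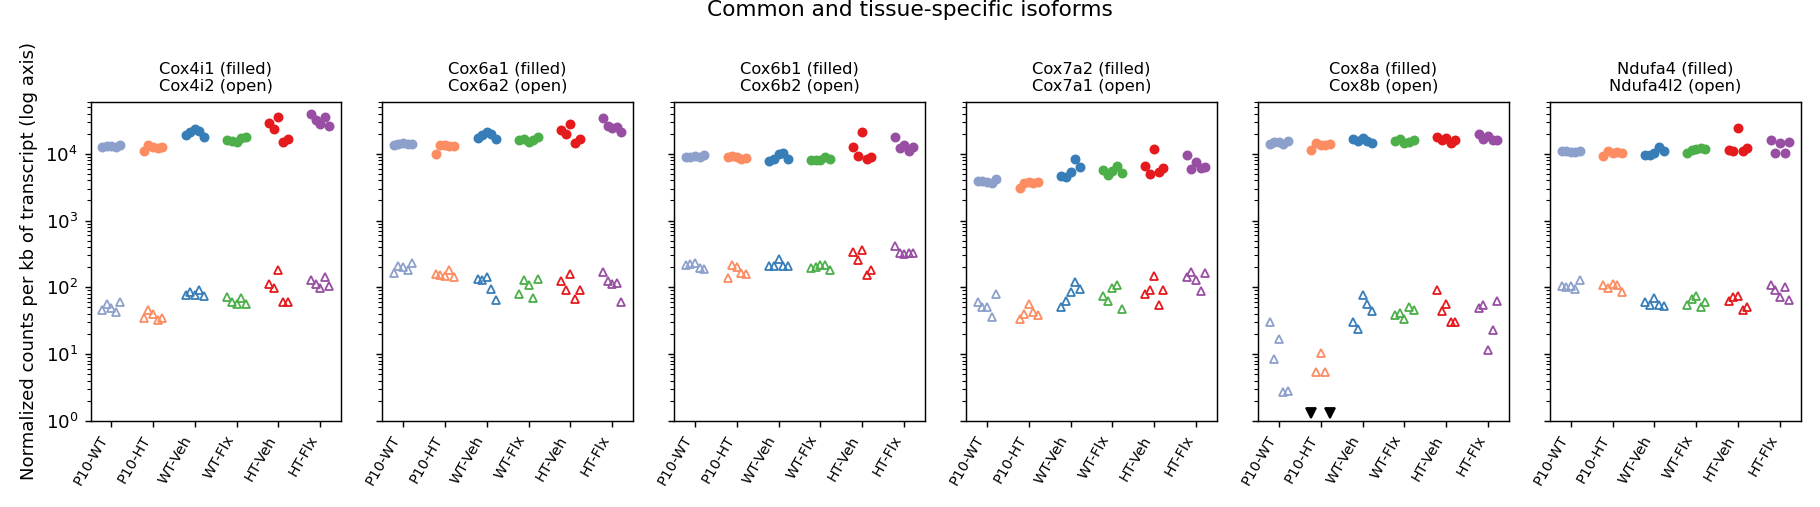
Normalized counts per kb of transcript of each common subunit (filled circles) and of its alternative isoform (open triangles) in every library of the 6 groups, on a log10 axis. Each alternative isoform lies below its common partner in all 30 libraries, and black triangles at the bottom mark the P10-HT libraries where Cox8b is listed at 0.

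Between P10 and P120, members of complexes I and IV rose in WT brain, while complex V was divided. The comparison of WT-Veh at P120 with P10-WT asks how the subunits differ between pup and adult brain. Age and vehicle exposure cannot be told apart in it, because the P10 mice were untreated. Any difference in processing date between the ages could not be told apart from these either. All 82 members were tested, with 39 higher and 12 lower at an adjusted p under 0.05 (limma with Benjamini-Hochberg adjustment over all genes). Over all 17927 genes tested, 58.3% were called, 28.9% higher and 29.4% lower. The median log2 fold change was 0.22 over the members and -0.01 over all genes. Complex I had 21 of 37 members higher and 3 lower, complex II 2 and 1 of 4, complex III 3 and 2 of 8, complex IV 9 and 2 of 16, and complex V 4 and 4 of 17. Scaling each library to an equal sum moved the median of all genes by over 0.1, to -0.12, and the members then had 34 higher and 16 lower around a median of 0.11, against 59.6% of all genes called. Fold changes also rose with transcript GC content (r = 0.208 over members), with medians of 0.08, 0.21 and 0.31 in members of low, middle and high GC content. Under a correction for GC content and length, 38 members were higher and 13 lower around a median of 0.15, against 59.2% of all genes called. Leaving out WT-Veh 2, whose Arid1b level went against its label, gave 40 higher and 10 lower members around a median of 0.24. That fit called 56.1% of all genes.

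The largest rise among members that met the rule for naming genes was that of Ndufs7, which carries an iron-sulfur cluster near the quinone site of complex I (ENSMUSG00000020153, chr10:80249121-80256794). Its normalized counts were 1820, 1980, 1737, 1853 and 1885 in P10-WT and 3697, 4336, 4760, 4627 and 3801 in WT-Veh, so the groups did not overlap. The same held for 45.6% of all genes tested. The log2 fold change of Ndufs7 was 1.19 ± 0.08 (SE), with an adjusted p of 7.19e-08. Accessory subunits of complex I followed, with Ndufb4 at 1.03 ± 0.08, Ndufa13 at 0.83 ± 0.09, Ndufb2 at 0.69 ± 0.13 and Ndufc1 at 0.67 ± 0.12 (adjusted p of at most 0.000415). Ndufb4 shares near-identical sequence with the pseudogene Ndufb4c, which was listed at 894 to 1044 in P10-WT and 1670 to 2432 in WT-Veh, above Ndufb4 itself (297 to 357 and 600 to 747), so the split of reads between them is uncertain.

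Fewer members fell. Ndufa4l2 was at 99.3, 94.1, 97.3, 89.0 and 121 in P10-WT and at 55.4, 50.9, 63.5, 51.1 and 48.7 in WT-Veh, with no overlap and a log2 fold change of -0.88 ± 0.14 (adjusted p = 0.000105). Ndufa4 itself had a log2 fold change of -0.03 (adjusted p = 0.767). Cox6a2 was at 111, 143, 136, 122 and 155 in P10-WT and at 90.2, 86.7, 95.4, 63.0 and 44.0 in WT-Veh, with a log2 fold change of -0.85 ± 0.20 (adjusted p = 0.00281). Its partner Cox6a1 rose by 0.41 ± 0.07. Sdhd fell by 0.38, as did Cox5a of complex IV, and Atp5f1, part of the peripheral stalk of ATP synthase, fell by 0.31. In the same comparison the parvalbumin interneuron markers Pvalb and Kcnc1 both rose (summed 5138 to 7682 in P10-WT, 10159 to 21247 in WT-Veh). Of the 4 pericyte markers, 3 fell and none rose (summed 8435 to 9003, then 4832 to 5470). The part of these cell types in the values of Cox6a2, Cox4i2 and Ndufa4l2 was not tested.

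Other isoforms of complex IV rose. Cox4i2 went from 33.1, 41.7, 35.3, 31.3 and 43.2 in P10-WT to 55.7, 61.3, 56.4, 66.3 and 54.7 in WT-Veh (log2 fold change 0.67 ± 0.15, adjusted p = 0.00213), and Cox4i1 by the same 0.67 ± 0.08. Cox8b was near the detection limit, at 10.9, 3.01, 6.01, 0.972 and 1.01 in P10-WT and 10.8, 8.66, 27.3, 20.5 and 15.8 in WT-Veh. The groups overlapped, and its log2 fold change of 1.96 ± 0.52 (adjusted p = 0.00586) depends on the added 1. Cox7a1 (0.53, adjusted p = 0.103) and Cox6b2 (0.07, adjusted p = 0.641) did not pass the test, nor did Cox8a (0.10) and Cox6b1 (-0.03). Cox7a2 rose by 0.54 ± 0.14, Cox7b by 0.57 ± 0.09 and Cox7a2l by 0.27 ± 0.07. Atp5g1 fell by 0.32, while Atp5g2 (-0.35, adjusted p = 0.0553) and Atp5g3 (-0.04, adjusted p = 0.721) did not pass.

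In HT brain, 45 members were higher and 3 lower in HT-Veh at P120 than in P10-HT among the 81 tested, against a background of 51.1% of all genes called, 25.8% higher and 25.3% lower. The median log2 fold change was 0.48 over the members and -0.02 over all genes, and with equal sums (all genes -0.18) 40 were higher and 6 lower around 0.31, against 52.1%. Leaving out P10-HT 1 gave 38 higher and 2 lower against 45.3% of all genes, leaving out HT-Veh 2 gave 44 and 1 against 45.6%, and leaving out HT-Veh 3 gave 42 and 3 against 49.5%. The largest rises that met the naming rule were those of Ndufs7 (1.46 ± 0.21, adjusted p = 0.000113), Cox4i2 (1.29 ± 0.28, adjusted p = 0.00197) and Ndufb2 (1.02 ± 0.25, adjusted p = 0.00401). Cox7a1 rose by 1.05 ± 0.26 (adjusted p = 0.00491). Cox8b was not tested, because its mean over these libraries was under 10. It was listed at 0 to 3.77 in P10-HT, with 2 libraries at 0, and at 10.9 to 33.1 in HT-Veh. Ndufa4l2 fell by 0.77 (adjusted p = 0.00255) and Cox6a2 by 0.61 (adjusted p = 0.0275), the latter with an adjusted p of 0.0599 when HT-Veh 2 was left out.

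The WT and HT age comparisons share no libraries. They had 36 higher members in common, 92.3% of the 39 in WT and 80% of the 45 in HT. Among all genes, 28.9% were called higher in WT and 25.8% in HT, and the overlap of those calls was not counted. The shared calls are therefore not shown to be particular to the members. The 3 members lower in HT (Cox6a2, Ndufa4l2 and Sdhd) were also lower in WT, where they made up 25% of the 12. The direct test of genotype by age called 0 members and 0 of all genes (0% of 17978, limma). At an unadjusted p under 0.05 it had 2 members higher and 0 lower, against 3.4% of all genes. The 2 were Ndufa1 (0.48 ± 0.23) and Atp5s (0.30 ± 0.14), each with an adjusted p of 0.877. The estimate was positive for 79 of 82 members, with a median of 0.26 that was 0.14 without HT-Veh 3. The median over all genes was 0.02 in the main fit. This estimate subtracts the genotype difference at P10, which was negative for 70 of 81 members.

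**Figure D3:**
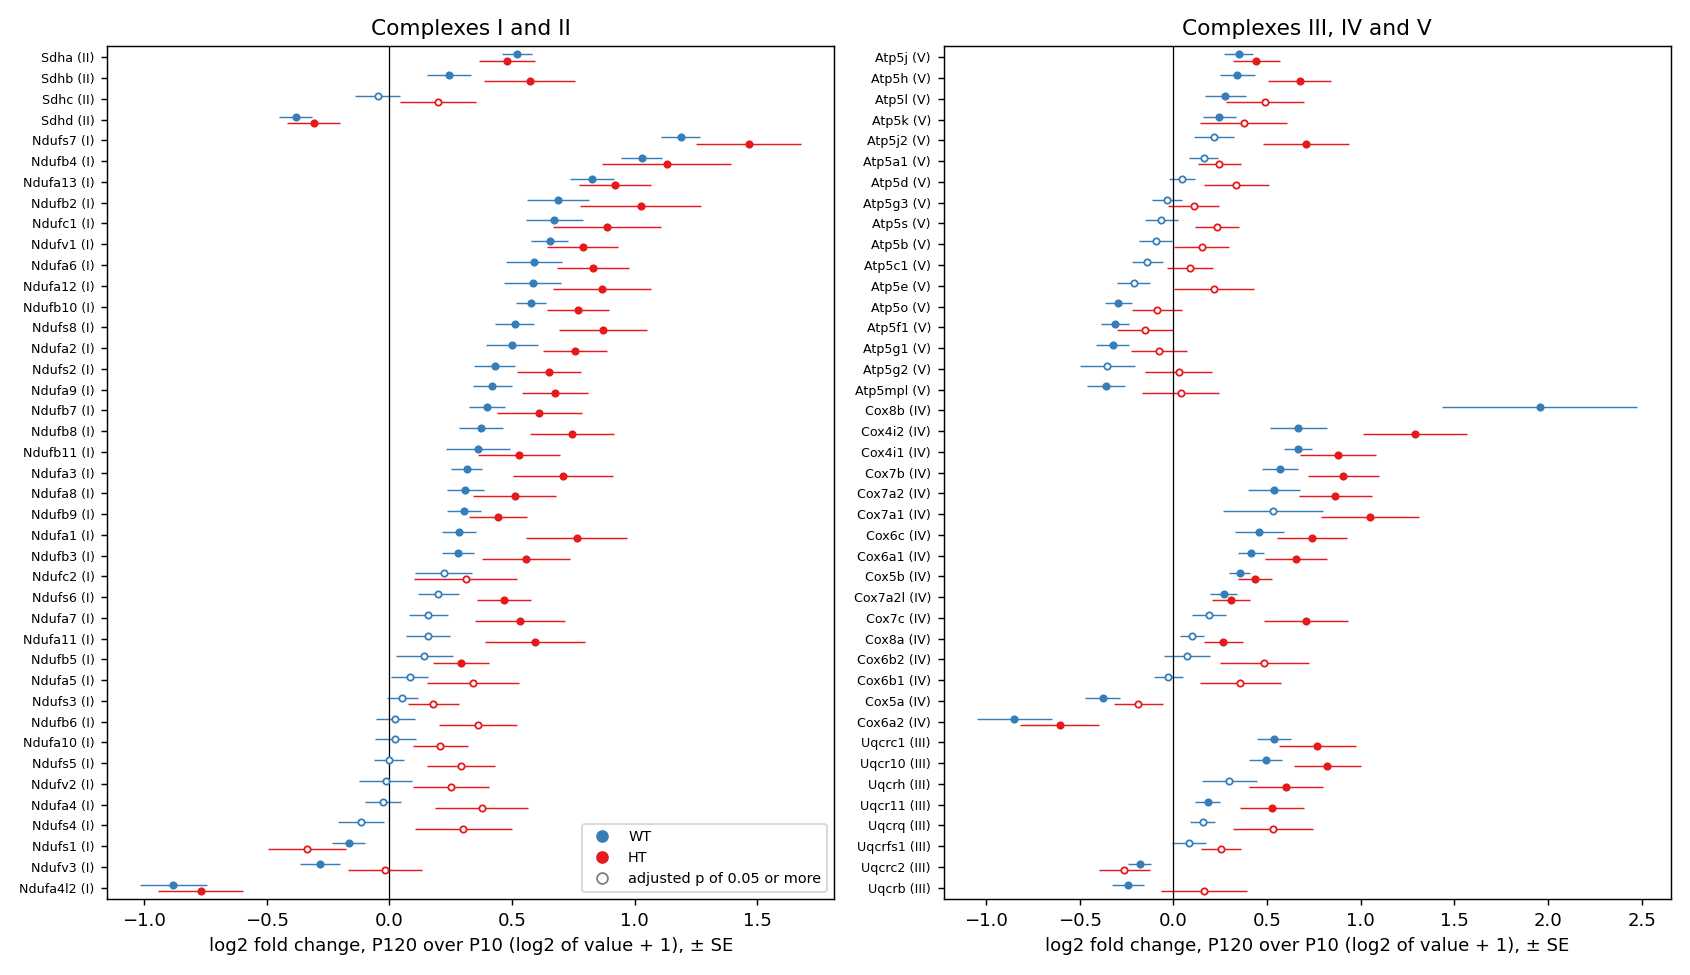
Log2 fold change between P10 and vehicle-treated P120 brain for each member, WT in blue and HT in red, with bars for ± SE and filled points for an adjusted p under 0.05. Most members of complexes I and IV lie right of 0 in both genotypes, while Cox6a2, Ndufa4l2 and Sdhd lie left of 0 in both.

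At P10, the Arid1b mutation was not accompanied by a member that passed the test. Of 81 members tested, 0 were called higher or lower in P10-HT than in P10-WT (limma), against 0.0224% of all genes, or 4 genes. At an unadjusted p under 0.05 there were 1 higher and 13 lower members, against 12.6% of all genes. The estimate was negative for 70 of 81 members. The median log2 fold change of the members was -0.08, and -0.05 without P10-HT 1. Over all genes the median was -0.01 in the main fit. The members with the smallest unadjusted p included the rotor subunit Atp5e (-0.17 ± 0.05, adjusted p = 0.292) and Ndufc2 (0.14 ± 0.06, adjusted p = 0.360). Cox6a2 was at 107, 105, 100, 125 and 95.9 in P10-HT, with a log2 fold change of -0.31 ± 0.11 (adjusted p = 0.331), and Cox4i2 at 25.5, 33.7, 29.3, 23.6 and 25.4, with -0.41 ± 0.17 (adjusted p = 0.355). Both groups overlapped for either gene. P10-HT 1 stood below the other P10-HT libraries for several members, with Uqcrc1 at 6070 there and at 7509 to 7849 in the other 4.

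At P120, the comparison of HT-Veh with WT-Veh (4 libraries each) called 0 of 82 members and 0 of all genes (0%, limma). At an unadjusted p under 0.05 there were 0 members, against 1.29% of all genes. The estimate was positive for 76 of 82 members with a median of 0.18, which was 0.01 without HT-Veh 3. The median over all genes was 0.007 in the main fit. Uqcrb, the ubiquinone-binding subunit of complex III, had the smallest p of the positive members (0.53 ± 0.26, adjusted p = 1.00). The spread between HT-Veh libraries was wide, with a median coefficient of variation over members of 30.2% against 12.3% in WT-Veh, 16.7% in HT-Flx and 6.45% in WT-Flx. For example, Cox7b was at 8341 in HT-Veh 3 and at 3699 to 4878 in the other HT-Veh libraries.

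Fluoxetine was compared with vehicle within each genotype. In HT, 0 of 82 members and 0 genes passed (0%, limma), and at an unadjusted p under 0.05 there were 10 higher and 2 lower members against 23.1% of all genes. In WT, again 0 members and 0 genes passed (0%, limma), and at an unadjusted p under 0.05 there were 2 higher and 18 lower members against 25.2% of all genes. The HT and WT medians were 0.19 and -0.10, and fell to 0.07 and -0.04 both with equal sums and under a correction for transcript GC content and length. Without HT-Veh 2 the HT median was 0.15, and without HT-Veh 3 it was 0.29. In WT, leaving out WT-Veh 1 gave 11 called members (2 higher, 9 lower) against 7.84% of all genes, and leaving out WT-Veh 5 gave 5 (1 higher, 4 lower) against 3.49%. The WT members with the smallest p had adjusted values just above the threshold, with Ndufs7 at -0.36 ± 0.09 (adjusted p = 0.0849), Cox4i1 at -0.32 ± 0.09 (0.0861), Ndufs1 at 0.24 ± 0.06 (0.0858) and Uqcrc2 at 0.25 ± 0.07 (0.0882).

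The comparison of the fluoxetine-treated genotypes called the most members of the P120 comparisons run. In HT-Flx against WT-Flx, 57 members were higher and 5 lower of 82, against 63.7% of all genes called, 33.1% higher and 30.5% lower. The median log2 fold change was 0.42 over the members and 0.02 over all genes. Complex I had 26 higher and 1 lower of 37, complex II 2 and 2 of 4, complex III 6 and 1 of 8, complex IV 10 and 0 of 16, and complex V 13 and 1 of 17. Scaling to equal sums moved the median of all genes to -0.23, and the members then had 37 higher and 10 lower around a median of 0.17, against 62.3% of all genes called. The 5 lower members in the main scaling were Ndufs1, Uqcrc2, Atp5f1, Sdha and Sdhd.

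Uqcrc1 (ENSMUSG00000025651, chr9:108936633-108949623) was at 20773, 17811, 15887, 18708 and 14858 in HT-Flx and at 8647, 7810, 8359, 9268 and 9590 in WT-Flx. Every HT-Flx library was higher, and the log2 fold change was 1.01 ± 0.10 (adjusted p = 3.07e-05). Ndufs7 was at 7811, 6325, 5309, 7154 and 5279 against 3298, 2976, 3163, 3521 and 3494, with 0.94 ± 0.11 (adjusted p = 4.34e-05). Cox4i1, the common form of the subunit through which ATP regulates complex IV, was at 29146, 23540, 20491, 26520 and 19222 against 12150, 11576, 11274, 13006 and 13426, with 0.94 ± 0.11 (adjusted p = 4.29e-05). Ndufb4, whose reads are uncertain as above, had 0.96 ± 0.15 and its pseudogene Ndufb4c 0.99 ± 0.16. For these members and for Ndufs1 and Uqcrc2, the exact permutation p was 0.00794, the smallest that 5 against 5 libraries allow. Any gene whose groups do not overlap has this p, so it adds no support beyond that separation. The naming rule required the separation for all but the isoforms. In this comparison 48.5% of all genes tested and 48 of the 82 members had groups that did not overlap.

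The members that fell furthest were the large iron-sulfur subunit Ndufs1 (ENSMUSG00000025968, chr1:63143596-63176833) and the core protein Uqcrc2 (ENSMUSG00000030884, chr7:120635176-120659524). Ndufs1 was at 1951, 2852, 2162, 3268 and 2887 in HT-Flx and at 4563, 4580, 4814, 4645 and 4654 in WT-Flx, a log2 fold change of -0.85 ± 0.13 (adjusted p = 0.000122). Uqcrc2 was at 2460, 3073, 3238, 3435 and 4274 against 4880, 5733, 5486, 5280 and 5685, with -0.74 ± 0.12 (adjusted p = 0.000257). Neither gene had overlapping groups. Uqcrc1 and Uqcrc2, which form the core protein pair of complex III, differed in opposite directions between the same libraries.

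**Figure D4:**
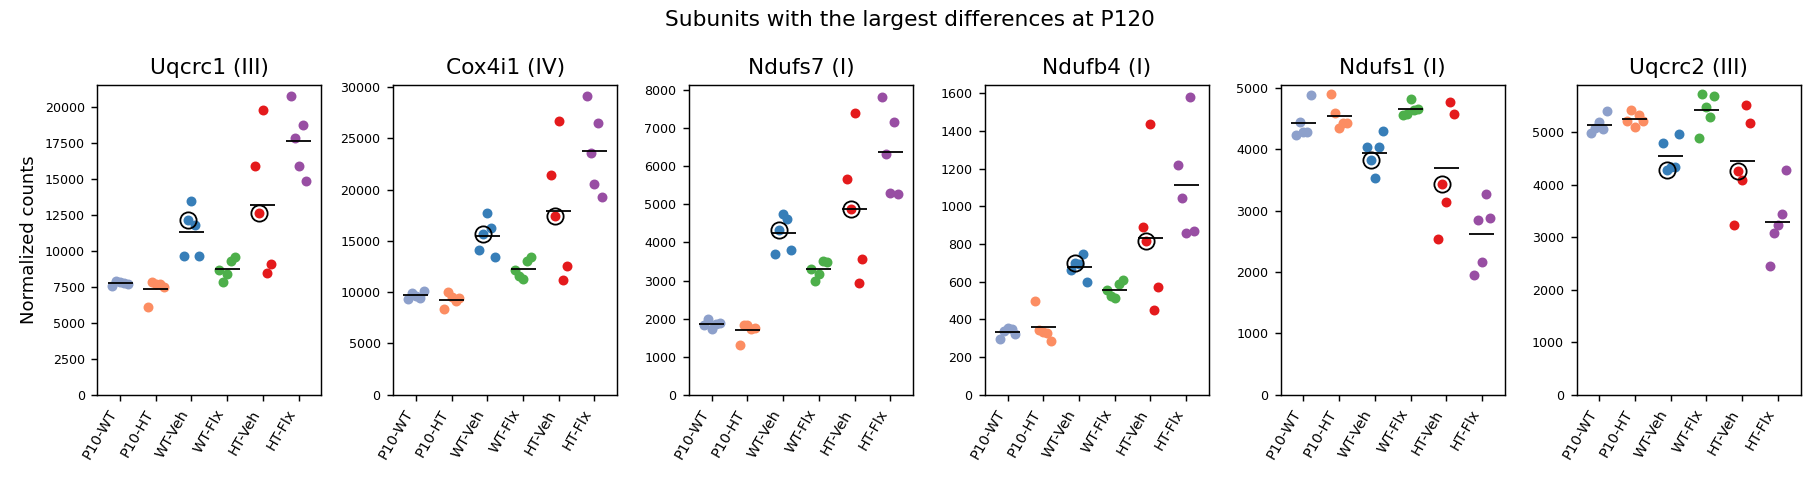
Normalized counts of members named in the P120 comparisons, 1 point per library and a line at each group mean, with open black rings around the libraries labelled HT-Veh 2 and WT-Veh 2. Uqcrc1 lies between 14858 and 20773 in HT-Flx and between 7810 and 9590 in WT-Flx, and Ndufs1 shows the opposite order.

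Fold changes followed transcript GC content. Over the 82 members the correlation between GC content and log2 fold change in HT-Flx against WT-Flx was 0.37, and over 17788 genes it was 0.745, described across genes that share the same libraries. The median log2 fold change was 0.31 in the 27 members of lowest GC content, 0.37 in the middle 27 and 0.65 in the upper 28. The members named above as higher had a GC content of 56.4% (Uqcrc1), 52.2% (Ndufb4), 60.1% (Ndufs7) and 57.3% (Cox4i1), while Ndufs1 had 47.4% and Uqcrc2 45.4%. After a correction for GC content and length, 39 members were higher and 4 lower around a median of 0.25, against 36% of all genes called. Uqcrc1 then had 0.48, Ndufb4 0.88, Ndufs7 0.32, Cox4i1 0.42, Ndufs1 -0.68 and Uqcrc2 -0.33, each still past the threshold. The balance of GC-rich and GC-poor genes differed between these groups in every library (0.742 to 1.67 in HT-Flx, -0.696 to -0.465 in WT-Flx), and its part in the result beyond this correction was not tested.

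**Figure D5:**
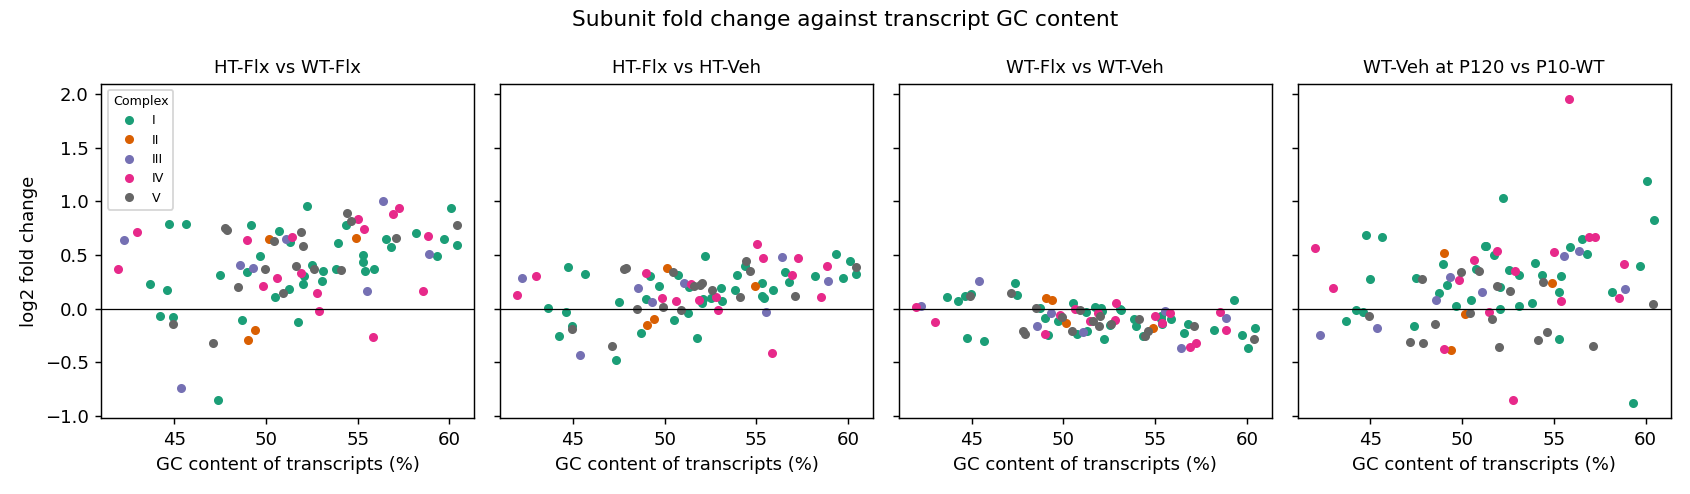
Log2 fold change of each member against the GC content of its transcripts (%) in 4 comparisons, coloured by complex. The cloud rises with GC content in HT-Flx against WT-Flx (r = 0.37) and against HT-Veh (r = 0.413), and falls in WT-Flx against WT-Veh (r = -0.465). In WT-Veh at P120 against P10-WT, r is 0.208.

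Among the isoforms in HT-Flx against WT-Flx, Cox4i2 had 0.88 ± 0.15 (adjusted p = 0.000311), Cox7a1 0.84 ± 0.25 (adjusted p = 0.0117) and Ndufa4l2 0.49 ± 0.18 (adjusted p = 0.0300). Corrected for GC content and length, Cox4i2 had 0.36 (adjusted p = 0.0578), Cox7a1 0.45 (adjusted p = 0.195) and Ndufa4l2 turned to -0.13 (adjusted p = 0.532). Cox6a2 (0.14, adjusted p = 0.662) and Cox8b (-0.26, adjusted p = 0.580) did not pass either way. Atp5g1 rose by 0.73 ± 0.09, Atp5g2 by 0.66 ± 0.14 and Atp5g3 by 0.63 ± 0.09, whereas Cox8a (0.17), Ndufa4 (0.18) and Cox7a2l (0.21) did not pass. Of the cell type markers in this comparison, 3 of 4 neuronal markers fell and 1, Rbfox3, rose (summed 63143 to 97539 in HT-Flx, 107248 to 118698 in WT-Flx), the glutamatergic marker Slc17a7 rose and Slc17a6 fell (43178 to 93200 against 29630 to 38778), both parvalbumin interneuron markers rose (18276 to 27535 against 9027 to 18774), and 3 of 4 pericyte markers rose and 1 fell (5566 to 6548 against 4618 to 5375). Their part in the members' values was not tested.

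HT-Flx was also higher than WT-Veh for many members, with 47 higher and 2 lower of 82 against 43.3% of all genes called, 23.4% higher and 19.9% lower. The median log2 fold change was 0.38 over the members and 0.03 over all genes. With equal sums (all genes -0.15) the members had 16 higher and 5 lower against 39.8% of all genes called, and with the GC and length correction 23 higher and 1 lower against 8.73%. Without WT-Veh 2 there were 37 higher and 2 lower against 36.5%. Ndufb4 (0.68 ± 0.16), Uqcrb (0.67 ± 0.13) and Uqcrc1 (0.64 ± 0.12) rose, and Ndufs1 (-0.61 ± 0.14) and Uqcrc2 (-0.48 ± 0.13) fell, with adjusted p of 0.00742 to 0.0116. Uqcrc2 lost its call under the GC and length correction (-0.23, adjusted p = 0.115), whereas Uqcrb rose by 1.03.

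The interaction of genotype and fluoxetine is the fluoxetine difference in HT minus that in WT. It called 12 members higher and 2 lower, or 17.1% of the members. Among all genes 27.3% were called, 15.8% higher and 11.5% lower, so members were called less often. With equal sums (all genes -0.17) 7 were higher and 4 lower against 26.5%. The higher members were Uqcrc1 (0.85 ± 0.25, adjusted p = 0.0347), Ndufs7 (0.81 ± 0.26), Cox4i1 (0.79 ± 0.25), Atp5d, Ndufa8, Atp5g1, Cox6a1, Ndufv1, Cox5a, Ndufb8, Atp5g3 and Sdhc, and the lower ones Ndufs1 (-0.72 ± 0.21) and Uqcrc2 (-0.69 ± 0.19). No member was called after the GC and length correction, without the libraries labelled HT-Veh 2 and WT-Veh 2, or without any 1 of HT-Flx 1, WT-Flx 2, WT-Flx 3, HT-Veh 4, HT-Veh 5, WT-Veh 2, WT-Veh 3 and WT-Veh 4. Conversely, 36 were called without HT-Veh 3 (37.1% of all genes), 23 without HT-Veh 1 (43%) and 8 without HT-Flx 3 (12.9%).

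Across P120 libraries, the genes most like a member were found by Pearson correlation over all 20 libraries, which share the gradient in GC content. Cox6a2 was most like Msantd1 (r = 0.905). Cox4i1 was most like Rnf208 (0.996), Smdt1 (0.995) and the member Ndufs7 (0.995), and Cox4i2 was most like Ltbr (0.979), Atf5 (0.974) and Sdc3 (0.968). Among common isoforms, Cox7a2 was most like the members Cox6c (0.988) and Uqcrh (0.976), and Cox6b1 was close to Cox7c (0.984). Ndufa4l2 had lower correlations, with Iba57 (0.867) the highest.

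Other genes of energy metabolism are given beside the 58.3% of all genes called with age in WT brain. With age, 4 of the 13 subunits encoded in mitochondrial DNA were higher and 3 lower. Cytochrome c (Cycs) fell by 0.52, and Cyc1, the cytochrome c1 of complex III, rose by 0.20 ± 0.08. Of 43 assembly factors 17 were higher and 7 lower, among them the copper chaperone Cox17 at 1.29 ± 0.07. Of 12 regulators of mitochondrial biogenesis 3 were higher and 2 lower, with the nuclear receptor Esrra at 1.12 ± 0.09 and the ETS factor Gabpa at -0.40 ± 0.10, while Nrf1 (-0.01) and Tfam (0.10) did not pass. The citric acid cycle had 4 of 13 genes higher and 3 lower, and glycolysis 13 of 17 gene IDs higher and 2 lower, among them Ldhb at 0.85 ± 0.08 and Aldoc at 1.71 ± 0.15.

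In HT-Flx against WT-Flx, where 63.7% of all genes were called, 7 of 13 mitochondrially encoded subunits were higher and 1 lower, with mt-Atp6 at 0.92 ± 0.16. Cyc1 rose by 0.97 ± 0.10, whereas Cycs (-0.02) and Ndufab1 (0.12), a complex I subunit that is also the mitochondrial acyl carrier, did not pass. The assembly factors had 18 of 43 higher and 8 lower, the citric acid cycle 6 of 13 higher and 4 lower, and glycolysis 13 of 17 gene IDs higher and 2 lower. Among biogenesis regulators 5 were higher and 3 lower. Esrra rose by 1.07 ± 0.14, while the coactivator Ppargc1a fell by 0.92 and Gabpa by 1.05.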

How the data were processed

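Poly(A) RNA of 30 whole brains was sequenced by the authors as paired reads, and transcripts were quantified with Salmon 1.1.0 (GC bias option) on mouse GRCm38, imported with tximport and normalized with DESeq2 1.30.1 in R. The deposited values are these normalized counts, a signal on 1 scale for all libraries, not whole reads. Authors' columns of other comparisons were not used. Gene names and coordinates came from GENCODE M21 (19722 of 19737 genes named).

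Differences were tested with limma 3.58.1 (R 4.3.3, intensity trend) on log2(value + 1) for genes with a mean of at least 10, two-sided, at a Benjamini-Hochberg adjusted p of 0.05 over all genes; fold changes of low genes are therefore understated. The pipeline was run on simulated data as a check of the code. In the main simulation noise was drawn independently for each gene, whereas the P120 libraries share a gradient in GC content. It therefore gives no error rate for these data. Named members were the isoforms and, per comparison, up to 3 (age in WT: 5) in each direction with the largest change among called members with a mean of at least 50 and no overlap, or the 2 smallest p where none passed. The members, lists and tests were chosen with earlier results of these data known. The study counts each library as 1 mouse. Alternatives covered the pseudocount, filter, scaling, a GC and length correction in 10 by 10 bins, a replicate block and leaving out each library.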

Additional observations from a re-analysis of the deposited data

Results flagged for a closer look

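Sets of 5 libraries were checked over 35 members and the complexes' shares. Of 246 sets, 24 had a library whose gap to its neighbour was large for the range of the group. Chance gives about 1 in 20 for independent sets, but sets from the same libraries are not independent. P10-HT 1 held 13 of the 24. It was low for Cox6a1 (5744 against 7429 to 7742), Cox7a2 (2039), Cox8a (6221), Atp5g3 (5236), Cox5a (3453), Ndufs7 (1311) and Uqcrc1 (6070), and high for Uqcrb (1875 against 1427 to 1497) and Ndufb4 (497.8). The share of all members in it was 0.7816%, and the shares of complexes II, III and V were 0.048%, 0.0754% and 0.3104%. HT-Veh 3 was high for Ndufa4 (11010 against 5106 to 5590), Cox7a2 (7706), Cox7b (8341) and Ndufa1 (2635). HT-Flx 1 was high for Cox6b2 (178.5), Atp5e (3274) and Ndufa13 (6035). WT-Veh 3 was high for Cox6b2 (115.9 against 90.85 to 91.86). P10-WT 1 was low for Atp5g3 (6262), and P10-WT 4 was low for Ndufb2 (1339) and for the complex II share (0.05254%).

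The interaction test of genotype and fluoxetine called 27.3% of all genes. By it the fluoxetine difference itself differed between genotypes for a smaller share of the members, 17.1%, or 14 members (12 higher and 2 lower). None of them was called after the GC and length correction or without the libraries labelled HT-Veh 2 and WT-Veh 2. The estimates on the log2 scale were 0.85 for Uqcrc1, 0.81 for Ndufs7, 0.79 for Cox4i1, 0.67 for Atp5d, 0.65 for Ndufa8, 0.62 for Atp5g1, 0.59 for Cox6a1, 0.57 for both Ndufv1 and Cox5a, 0.55 for Ndufb8 and Atp5g3, 0.51 for Sdhc, -0.69 for Uqcrc2 and -0.72 for Ndufs1.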

How the results depend on the processing

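Of 245 alternative fits, 224 kept the count of called members within 1.5 times of the main fit. Many of these set 0 called members against 0, which says nothing about stability. The main fit and every fit leaving out 1 library called 0 members at P10, in HT-Veh against WT-Veh, for fluoxetine in HT and for genotype by age. In 238 of the 245 fits the median moved by less than 1 SD between libraries, but several of these medians moved by over 1.5 times. With equal sums the median fell to 0.10 for HT-Veh against WT-Veh, 0.07 and -0.04 for fluoxetine in HT and in WT, 0.10 for the interaction of genotype and fluoxetine and 0.31 for HT age. Under the GC and length correction it was 0.12, 0.07, -0.04, 0.12 and 0.34, and 0.16 for genotype by age and -0.05 at P10. In HT-Flx against WT-Flx, 40 members (28.8% of all genes) were called under the correction with a replicate block, and the median was 0.17 with equal sums and 0.25 under the correction, with or without the block. In HT-Flx against WT-Veh, 21 members were called with equal sums (39.8% of all genes), 24 under the correction (8.73%) and 15 with correction and block (7.62%), with medians of 0.19, 0.18 and 0.18. The interaction of genotype and fluoxetine called 0 under the correction, with or without the block, and 0 without the libraries labelled HT-Veh 2 and WT-Veh 2. The WT age median was 0.11 with equal sums. Leaving out 1 library gave 0 to 11 called members for fluoxetine in WT and 0 to 36 for the interaction. It moved Ndufs1 in HT-Veh against WT-Veh between -0.257 and 0.0445, and Uqcrc2 in genotype by age between -0.165 and 0.0274, so both changed sign, though neither was called. The cause was not tested. The directions of members under the correction were added after the data were seen.

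In no comparison did every same-numbered pair of libraries correlate over 0.1, and the main fits used no replicate block. This does not exclude some shared structure. In HT-Flx against HT-Veh, same-numbered pairs had a mean correlation of 0.179 (-0.018 to 0.407) and other pairs -0.044, and 3 of 5 libraries were most like their own number. With a replicate block, HT-Flx against HT-Veh called 2 members, both lower (Ndufs1 at -0.48 and Uqcrc2 at -0.43), against 7.67% of all genes. Read depth is unknown, so precision rests on the spread between libraries, which was widest in HT-Veh, and members near the detection limit such as Cox8b are least certain.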
